A study of Mus musculus with 6 samples.

Results

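The cells described here are the day 14 germinal centre B cells that the submitters placed in cluster 2 of their day 14 table, working name early S phase cells. They were taken by that cluster number alone: 3592 of the 19757 cells of the day 14 table, which is 1 of 11 clusters, and of 38651 cells in all 6 libraries of the series. Library 1 gave 1696 of its 9109 cells (18.6%, exact Clopper-Pearson 95% interval 17.8 to 19.4) and library 2 gave 1896 of 10648 (17.8%, 17.1 to 18.5). These intervals, like those below, cover counting error only.

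All libraries hold B cells sorted from mouse spleen after intraperitoneal immunisation with an NP-coupled antigen in alum, read by 5-prime droplet single-cell RNA sequencing. The 2 day 14 libraries come from wild type mice and the gate B220+ CD95hi GL7hi IgD-. The 4 others, used below only to look at the same genes in cells that no part of cluster 2 came from, are 2 day 7 libraries of wild type mice (gate B220+ CD38- GL7hi) and 2 day 14 libraries of the B220+ CD95hi GL7hi IgD- gate from chimaeras. In the chimaeras, wild type bone marrow was given to irradiated hosts. These hosts were Il4ra+/+ in the control library and Ccl19Cre/+ Il4raf/f in the KO library. The sorted B cells thus descend from wild type marrow except for any that the host kept, and the Cre belongs to the host genotype. The labels do not say whether libraries of a group are separate animals or pools. The p-values below are over library sums, with a spread estimated in part or mainly over all genes together. They do not measure the spread between animals.

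Before a cell copies its DNA, the origin recognition complex with Cdc6 and Cdt1 loads the Mcm2 to Mcm7 helicase onto origins during G1, which is called licensing. At the start of S phase, E2F factors and cyclin E with Cdk2 raise the replication genes, and the loaded helicase is joined by Cdc45 and the GINS complex and begins to unwind. In the germinal centre, B cells divide and mutate their immunoglobulin genes mainly in the dark zone (DZ), and are selected in the light zone (LZ), from which chosen cells return to the dark zone. Ung, the uracil-DNA glycosylase, removes uracil from DNA and takes part in class switching and hypermutation.

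Levels are given as CPM, the UMI counts of a gene summed over the cells of a group and divided by that group's total, scaled to 1000000. A gene was called higher or lower when it reached 20 CPM in either group in both libraries and its log2 ratio was at least 0.5 in the same direction in both. This fold rule describes the cells and is no test, because the cluster was drawn on these genes in these cells. Symbols are those of the deposited table, and positions below are those of GENCODE for GRCm38.

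Some of the leading genes of cluster 2 carry the letters of an E2F site just before their start, so the stretch is shown for 4 of them and for Ung, the leading gene. The E2F letters searched were TTTCCCGC, TTTCGCGC, TTTGCCGC and TTTGGCGC on either strand, in a window from 250 bases before to 50 after the start (RefSeq, GRCm38.p6). Each line gives the 250 bases before the start, 5′ to 3′ on the gene's strand, with matches in capitals. They lie at chr11:98907901-98908150 for Cdc6 (plus strand), chr8:75109259-75109508 for Mcm5 (plus), chr1:128359706-128359955 for Mcm6 (minus), chr1:191575545-191575794 for Dtl (minus), which encodes the adaptor that marks Cdt1 for destruction in S phase, and chr5:114130185-114130434 for Ung (plus).
Cdc6: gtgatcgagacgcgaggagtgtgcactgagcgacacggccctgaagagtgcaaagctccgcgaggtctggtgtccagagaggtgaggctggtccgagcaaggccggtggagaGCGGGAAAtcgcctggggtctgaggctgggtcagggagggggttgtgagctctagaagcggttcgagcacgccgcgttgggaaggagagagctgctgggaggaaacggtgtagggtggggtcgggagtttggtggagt
Mcm5: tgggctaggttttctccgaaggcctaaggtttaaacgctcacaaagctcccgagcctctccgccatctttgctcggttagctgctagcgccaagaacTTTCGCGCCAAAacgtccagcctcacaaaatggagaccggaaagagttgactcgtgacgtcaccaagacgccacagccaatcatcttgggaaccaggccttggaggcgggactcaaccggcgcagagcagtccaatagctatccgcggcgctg
Mcm6: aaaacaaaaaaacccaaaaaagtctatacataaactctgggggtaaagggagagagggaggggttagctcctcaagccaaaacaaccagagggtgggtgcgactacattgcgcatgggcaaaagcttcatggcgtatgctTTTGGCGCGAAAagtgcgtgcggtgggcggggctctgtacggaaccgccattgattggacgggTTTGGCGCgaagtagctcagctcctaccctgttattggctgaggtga
Dtl: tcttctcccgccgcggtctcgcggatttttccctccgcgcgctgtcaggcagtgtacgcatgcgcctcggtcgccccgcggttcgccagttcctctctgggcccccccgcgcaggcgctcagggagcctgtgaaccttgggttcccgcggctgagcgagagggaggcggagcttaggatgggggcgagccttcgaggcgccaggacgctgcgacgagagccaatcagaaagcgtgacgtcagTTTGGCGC
Ung: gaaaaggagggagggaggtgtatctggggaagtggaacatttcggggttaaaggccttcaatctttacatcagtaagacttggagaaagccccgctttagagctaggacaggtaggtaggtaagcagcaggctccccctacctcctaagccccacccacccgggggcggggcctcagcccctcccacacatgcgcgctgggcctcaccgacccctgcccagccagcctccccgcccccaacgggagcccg
The match begins 138 bases before the start in Cdc6 and 8 before it in Dtl. Mcm5 has overlapping matches 153 and 149 bases before its start, and Mcm6 has matches 110, 106 and 47 bases before. Ung holds none of these letters in this window, which says nothing of the factor itself. RefSeq and GENCODE place some starts differently: the GENCODE gene begins at base 98907801 for Cdc6 and at base 114130386 for Ung, so those stretches overlap the annotated gene.

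Among the 143 genes that were higher in cluster 2, 111 matched a RefSeq promoter and 40 of them (36.0%) held an E2F match. The share was 5.88% over the 4828 genes at 20 CPM or more that had a promoter, and 2.61% over all 27025 genes of the promoter table. It was 4.49% over the 156 genes lower in cluster 2 with a promoter. Those lower genes instead held the CHR letters TTTGAA, a site known from G2 and M phase genes, in 45.5% of promoters, against 9.91% of the higher genes and 14.9% of all genes at 20 CPM or more. By list, 9 of the 14 licensing genes with a promoter had an E2F match and 11 of 16 G2/M genes had a CHR match. E2F matches were found in 6 of 15 leading genes, 7 of 25 fork, 7 of 16 G1/S, 2 of 9 firing and 0 of 13 nucleotide supply genes, and CHR matches also in 4 of 9 firing, 5 of 12 identity and 4 of 11 light zone genes. The 2 sets of letters do not overlap each other, and a match is a description of letters, not a measured site.

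The markers given for these cells set them apart in both libraries. Ung (chr5:114130386-114139323) was at 53.9 and 59.1 CPM in cluster 2 of libraries 1 and 2, against 14.97 and 17.0 in the other day 14 cells, log2 ratios of 1.85 (exact binomial 95% interval 1.65 to 2.05) and 1.80 (1.62 to 1.98). Cdc6 (chr11:98907801-98923940), the loader of the helicase, was at 107 and 109 CPM against 31.5 and 35.4. Gins2 (chr8:120578633-120589304), a GINS subunit, was at 64.4 and 70.8 against 24.4 and 22.9. The groups did not come near each other for these genes, and the 2 libraries differed little. E2f1 (chr2:154559407-154569892), the transcription factor, was at 159 and 177 against 58.7 and 62.1, and Mcm3 (chr1:20802968-20820312), a helicase subunit, at 373 and 362 against 149 and 153. Since the cluster was named for these markers, they check the label and nothing more. The label's word early has no direct measure of its own here. The contrast with cluster 0 below shows which S-called cells have more histone transcripts.

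In single cells the markers were sparse. A UMI of Ung was found in 19.0% and 18.9% of cluster 2 cells, against 4.86% and 5.22% of other cells, and in 1.76% and 2.40% of cluster 4, a mostly G2M-called cluster that serves as background (median 3966 UMIs per cell, against 3538.5 in cluster 2). For Mcm3 the shares were 70.0% and 66.5%, against 34.1% and 33.2%, with 26.2% and 25.0% in cluster 4. At least 1 of the 5 markers was seen in 86.8% and 86.7% of cluster 2 cells and at least 3 in 29.5% and 28.5%, against 46.5% and 45.8%, and 6.80% and 6.71%, of other cells. Most cells of the cluster thus showed fewer than 3 of its markers. After every cell was thinned to 1000 UMIs, which left out 15 and 15 cells of cluster 2 and 321 and 486 others, Ung was seen in 4.997% and 4.94% of cluster 2 cells and 1.27% and 1.32% of others.

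Depth and other cell types did not separate the cluster strongly. Cluster 2 cells had a median of 3745.5 and 3402.5 UMIs, against 3316 and 3141.5 in other cells, in libraries of 35637133 and 39839045 UMIs, and mitochondrial transcripts took 7.36% and 7.39% of UMIs, against 7.42% and 7.74%. The summed level of 7 T cell markers was 111 and 112 CPM in cluster 2 and 117 and 130 in other cells, with Cd8a at 0 in both libraries of cluster 2. Summed myeloid markers (8 genes, C1qa at 0) were at 54.4 and 31.1 CPM against 68.8 and 39.2, erythroid globins (4 genes) at 128 and 126 against 154 and 149, and stromal markers (5 genes, Col1a1, Col3a1 and Ccl19 at 0) at 0.568 and 0.808 against 0.804 and 0.895. B cell markers (5 genes) were at 4790 and 4642 CPM against 4980 and 4672. Scrublet called 1 and 0 doublets in the libraries, which is too few to have worked. The 5% highest doublet scores, ties included, took 6.78% and 7.23% of cluster 2 and 5.37% and 5.56% of the libraries. The part of doublets in the results was not tested beyond leaving those cells out, which kept 138 of the 143 higher and 250 of the 254 lower genes. The libraries share 135 cell barcodes, 5 of them in cluster 2 in both.

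**Figure D1:**
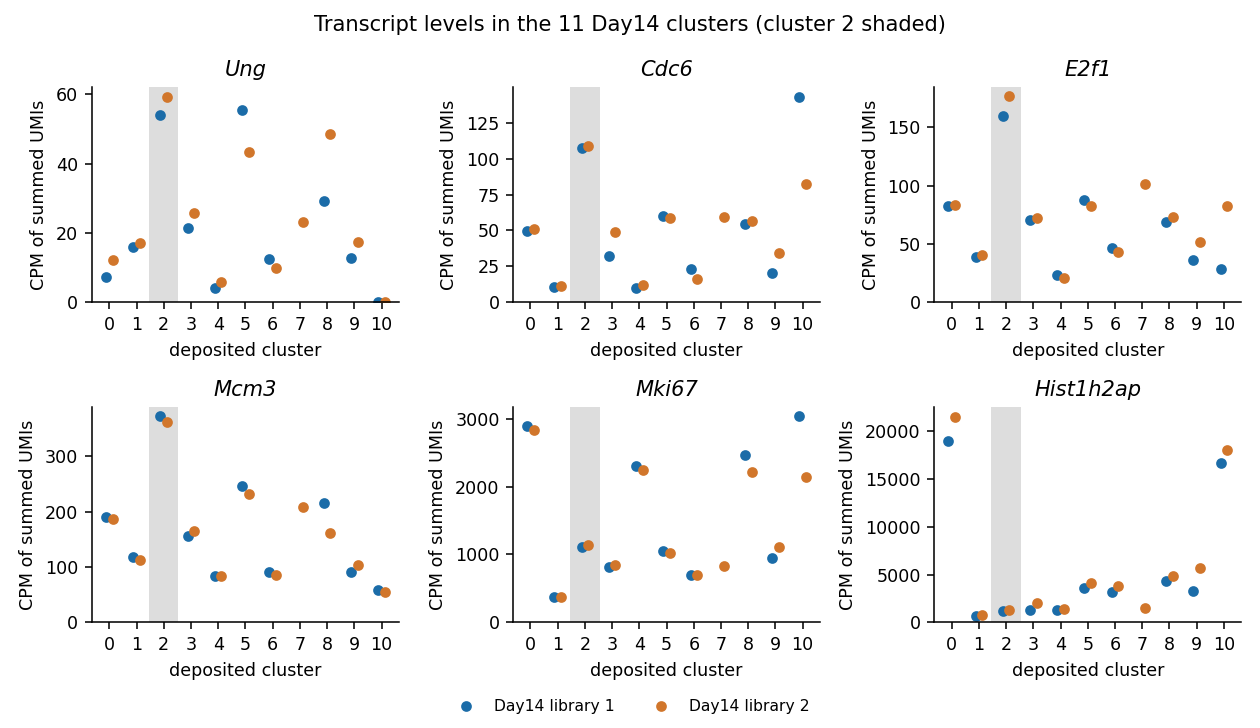
CPM of Ung, Cdc6, E2f1, Mcm3, Mki67 and Hist1h2ap (y axes, from 0) in each of the 11 deposited day 14 clusters (x axis), with 1 point per library and cluster 2 shaded. Ung is at 53.9 and 59.1 in cluster 2, 55.4 and 43.3 in cluster 5 and 0 in cluster 10, Mcm3 peaks in cluster 2, and Hist1h2ap in clusters 0 and 10.

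Against all other day 14 cells, 143 of 6101 genes measured at 20 CPM or more were higher in cluster 2 (2.34%) and 254 were lower (4.16%), with a median log2 ratio of 0.00 over all of them. The 20 genes with the largest mean ratio ran from Ung at 1.83 to Psmc3ip, a recombination cofactor, at 1.09. Most are replication genes: Cdc6 (mean log2 ratio 1.70), Gins2 (1.51), E2f1 (1.48), the clamp loader subunit Dscc1 (1.29), Mcm3 (1.28), Mcm2 (1.28), Mcm6 (1.25), Mcm4 (1.23), Dtl (1.20), Mcm5 (1.19), Gins1 (1.18), the single-strand binding subunit Rpa2 (1.16) and the nucleosome assembly subunit Chaf1b (1.14). Also among them were Cdca7 (1.36), a partner of the remodeller Hells, the kinase Pask (1.35), the checkpoint kinase Chek1 (1.32) and Zmynd19 (1.11). Using library 1 alone, without library 2, raised the count of higher genes to 218.

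Of the 14 licensing genes measured, 11 were higher and 0 lower, with a median log2 ratio of 1.01. The 6 helicase subunits Mcm2 to Mcm7 were among them. Mcm5 was at 493 and 486 CPM in cluster 2 against 209 and 218 in other cells, and Mcm6 at 446 and 450 against 183 and 194. Orc6, a subunit of the origin recognition complex, was at 110 and 113 against 52.8 and 56.1, whereas Orc4, another subunit, was at 29.8 and 32.2 against 32.2 and 32.5. Cdt1 (118 and 107 against 62.3 and 66.5) and its inhibitor Gmnn (168 and 171 against 103 and 103) were both higher.

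Of 14 origin firing genes, 8 were higher and 1 lower (median 0.65). Cdc45, which completes the active helicase, was at 36.3 and 35.2 CPM against 18.1 and 18.8, and Mcm10 at 63.6 and 70.4 against 31.8 and 37.8. Dbf4, the activator of the kinase Cdc7, was the one lower gene, at 76.7 and 75.3 against 118 and 119. The polymerase and fork list had 23 of 31 higher and 0 lower (median 0.70). Pcna, the sliding clamp, was at 285 and 278 CPM against 134 and 138, Lig1, which joins Okazaki fragments, at 328 and 345 against 167 and 173, and the primase subunit Prim1 at 162 and 164 against 79.4 and 80.2.

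The G1/S switch genes did not move as one, with 5 of 17 higher and 2 lower (median 0.42). Both E cyclins were higher: Ccne1 at 35.1 and 37.2 CPM against 18.6 and 20.4, and Ccne2 at 46.0 and 45.1 against 19.9 and 24.2. Cdk2, Cdc25a, which activates it, and E2f1 were the other higher members. Ccna2, the cyclin of S and G2 phase, was lower at 30.5 and 34.9 against 92.3 and 98.8. Clusters 0 (154 and 164) and 4 (172 and 175) set much of that level. Cluster 1 (13.6 and 11.5) was below cluster 2, as was cluster 7, found in library 2 only. Clusters 3 and 9 differed in direction between the libraries, and the rest were above cluster 2. Ccnd2, a G1 cyclin, was at 5.25 and 5.12 against 29.7 and 33.8. Cluster 5 (157 and 186) sets much of that level, and cluster 4 was about level with cluster 2 at 4.77 and 5.58. In cluster 10 no UMI of Ccnd2 was found, and the remaining clusters were above cluster 2. Ccnd3, the D cyclin most tied to dark zone division, was at 301 and 308 against 232 and 240, within the fold rule.

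Nucleotide supply was raised in part: 3 of 13 genes were higher and 0 lower (median 0.35). Dut, which keeps dUTP out of DNA, was at 329 and 329 CPM against 183 and 188. Rrm2, the limiting ribonucleotide reductase subunit, was at 111 and 129 against 87.6 and 87.2, and thymidylate synthase Tyms at 62.0 and 71.9 against 54.2 and 61.9, neither past the rule.

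Uracil and mismatch repair genes gave 4 higher and 1 lower of 15 (median 0.18). Beside Ung, the mismatch sensor subunit Msh6 (121 and 108 CPM against 67.7 and 71.7) and the exonuclease Exo1 (32.9 and 29.2 against 17.3 and 18.0) were among the higher ones. Polh, the polymerase that makes A:T mutations in hypermutation, was lower, at 20.3 and 14.1 against 35.1 and 34.6. Homologous recombination had 7 of 12 higher and 0 lower (median 0.62), Chek1 (30.5 and 35.4 CPM against 12.6 and 13.8) and Brca1 (77.7 and 78.9 against 39.2 and 43.1) among them.

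Chromatin copying genes gave 5 of 14 higher and 0 lower (median 0.44): the remodeller Hells at 565 and 558 CPM against 260 and 277, the hemimethylation reader Uhrf1 at 194 and 210 against 94.9 and 101, Slbp, which binds histone mRNA stem loops, at 353 and 351 against 199 and 201, Dnmt1 at 561 and 580 against 367 and 390, and the histone acetyltransferase Hat1 at 81.2 and 78.4 against 53.3 and 53.6. Clustered histone genes went the other way: all 52 measured were lower, with a median of -2.15. Hist1h2ap (chr13:21833026-21833507) was at 1164 and 1263 CPM in cluster 2 against 7546 and 9007 in other cells, and the linker histone Hist1h1b at 159 and 164 against 702 and 728. Cluster 0 sets much of the level of the other cells, with Hist1h2ap at 18965 and 21489 CPM. Cluster 2 was not low against every cluster: Hist1h2ap was at 622 and 795 in cluster 1, which is 93.3% G1-called, and at 1299.8 and 1389 in cluster 4, and Hist1h1b at 91.3 and 98.6, and 126 and 125, in the same clusters. Histone genes of 1 class are near-identical, so their reads may be shared out among copies, and most of their mRNAs lack a poly(A) tail, so the level of any single one is uncertain.

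G2/M genes were lower in 18 of 18 (median -1.62). Cenpf, a kinetochore protein, was at 52.4 and 56.6 CPM against 330 and 335, Plk1, a mitotic kinase, at 13.9 and 14.5 against 73.7 and 73.3, and Mki67, the proliferation marker, at 1108 and 1141 against 1646 and 1677. Clusters 0 (Mki67 at 2902 and 2835) and 4 (2302 and 2242) set much of the level of the other cells. Mki67 was higher than in cluster 2 in clusters 0, 4, 8 and 10 and lower in the rest, with 372 and 368 in cluster 1. Cenpf was lower than in cluster 2 only in cluster 1 (45.1 and 41.8). Of the 10 lowest genes, 8 were clustered histones and the others were the nuclease Ankle1 (mean log2 ratio -2.76) and the helicase Pif1 (-2.73). Against the mean of the other clusters, each weighted alike, the count of lower genes was 512 in place of 254.

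Of the germinal centre identity list, 0 of 13 genes passed the rule, with Bcl6, the lineage repressor, at 145 and 150 CPM against 133 and 140. Dark zone genes had only Polh lower of 9 (median 0.02), with Cxcr4, the dark zone homing receptor, at 113 and 87.0 against 106 and 82.6. Light zone genes had 6 of 13 lower (median -0.52), among them Il4i1 (30.7 and 30.2 against 85.9 and 91.9), the costimulation receptor Cd40 (31.1 and 35.0 against 55.1 and 61.5) and Nfkbia, the NF-kB inhibitor (178 and 168 against 293 and 305). Between S-called cells of clusters 2 and 0, compared below, 0 of 12 light zone genes were lower in cluster 2 (median -0.14). Cd83 was at 165 and 155 CPM in cluster 2, 173 and 159 in cluster 0, and 435 and 461 in cluster 5. MYC-driven growth had 1 of 18 lower, Batf, and Myc itself was at 21.6 and 23.6 CPM against 26.2 and 29.0. Of the genes measured, 2 of 3 memory-associated genes (Klf2 and Cd38), 2 of 6 plasma cell genes (Irf4 and Slpi) and 2 of 10 immunoglobulin constant genes (Ighd and Ighg2c) were lower, and none of their genes was higher. Klf2, which holds cells in a resting state, was at 7.52 and 4.31 CPM against 52.4 and 25.5. Cluster 6, at 449.5 and 394 CPM, sets most of that level, and clusters 0, 1, 4 and 5 were between 5.19 and 10.3 CPM, so the low Klf2 is shared with them.

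**Figure D2:**
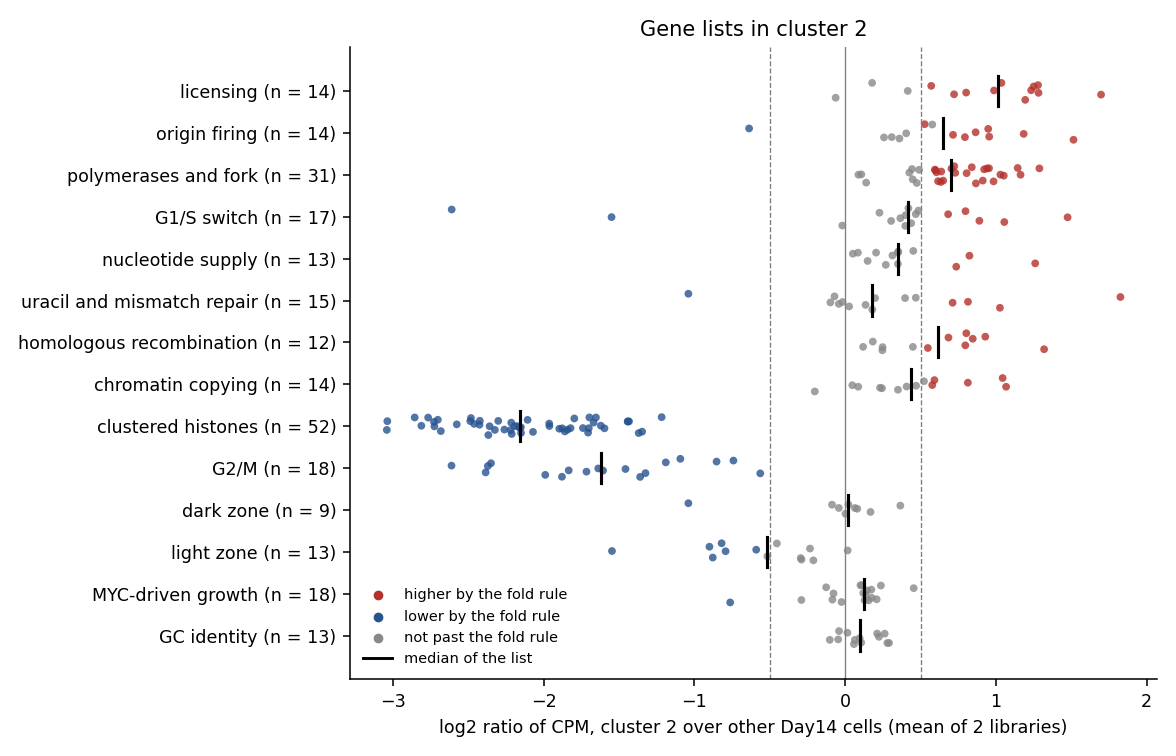
Mean log2 ratio of CPM (x axis), cluster 2 over the other day 14 cells, for each measured gene (points) of the lists (y axis), with red and blue points past the fold rule, grey points within it and a bar at each list's median. The licensing, firing, fork and recombination lists lie mainly right of 0, and every clustered histone and G2/M gene lies left of it.

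By the deposited phase calls, 74.4% and 73.3% of cluster 2 cells were S, 22.8% and 24.0% G1 and 2.83% and 2.74% G2M. Of other day 14 cells, 16.6% and 18.5% were S. Cluster 2 held 1261 of the 2490 S-called cells of library 1 (50.6%) and 1389 of 3004 in library 2 (46.2%), so the rest of S phase lay elsewhere. The zone calls of cluster 2 were 67.4% and 65.1% DZ, 32.0% and 34.1% LZ and 0.649% and 0.791% unknown. How phase and zone were called is not given in the sources used here.

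Within cluster 2 the calls went together. G1-called cells made up 34.3% and 37.9% of LZ cells and 17.4% and 16.2% of DZ cells, and G2M-called cells 4.02% and 4.13% of DZ cells. Put the other way, 48.1% and 53.8% of G1-called and 28.1% and 28.9% of S-called cells were LZ.

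**Figure D3:**
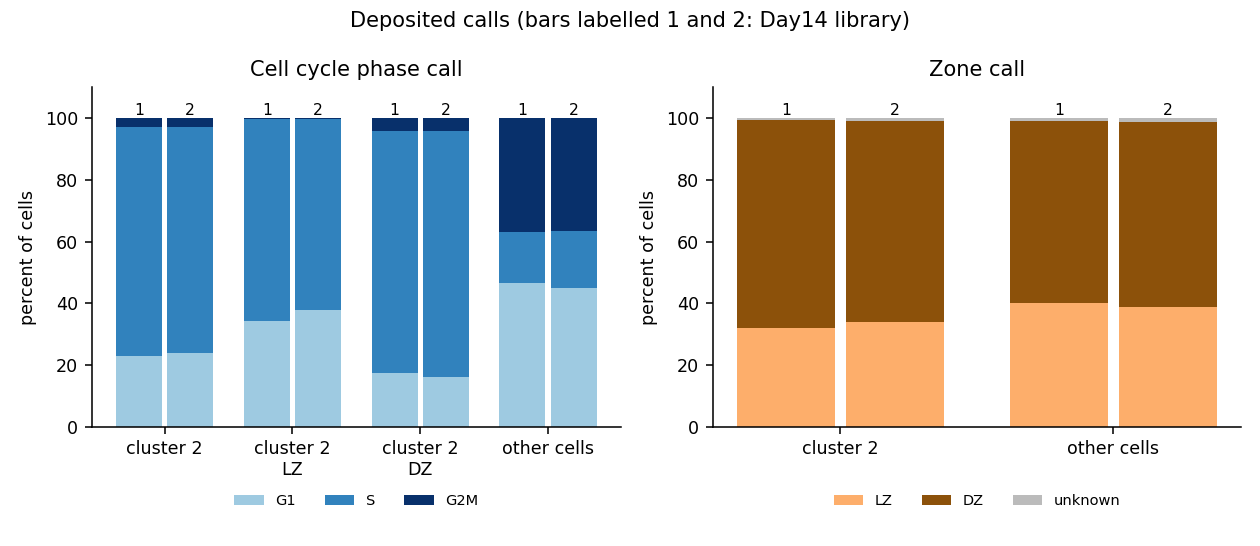
Percent of cells (y axis) by deposited cell cycle phase (left) and zone (right) for cluster 2, its LZ- and DZ-called cells, and the other day 14 cells, with a bar for each library (1 and 2). About 3 in 4 cells of cluster 2 are S-called in both libraries, and G1-called cells are a larger share of its LZ cells than of its DZ cells.

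G1-called cells of cluster 2 were set against its S-called cells, again as a description. Of 5993 genes, 53 were higher (0.884%) and 239 lower (3.99%) in the G1-called cells. The lower ones took 11 of 12 recombination genes, 10 of 14 firing genes, 17 of 31 fork genes, 10 of 17 G1/S genes, 7 of 13 nucleotide genes and 6 of 14 licensing genes, and no member of these lists was higher. Rrm2 was at 18.2 and 19.8 CPM in G1-called cells and 135 and 158 in S-called cells, Cdc6 at 35.8 and 26.6 against 127 and 132, and Clspn, a checkpoint adaptor of the fork, at 92.0 and 82.5 against 368 and 386. The helicase subunits ranged from a mean log2 ratio of -0.45 for Mcm3, at 293 and 284 CPM against 400 and 386, to -0.77 for Mcm5, at 317 and 314 against 545 and 534, and Mcm4, Mcm5 and Mcm7 passed the rule. Transcripts of Cdt1, whose protein is destroyed as S phase begins, were at 117 and 110 against 118 and 105, and the protein was not measured. Ung was at 23.4 and 29.999 against 63.3 and 67.4. The median log2 ratio of G1- to S-called cells was -0.51 for licensing, -0.74 for fork and -1.47 for recombination genes, beside 0.05 for all genes. Their median depth was 3139 and 2762 UMIs, against 3973 and 3629 for S-called cells. After thinning to 1000 UMIs per cell, 163 genes were higher and 277 lower.

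The 2 other clusters with the highest S-called share were 5 (1212 cells, 44.1% S, 18.6% DZ) and 10 (50 cells, 34.0% S, 66.0% G2M). Against cluster 5, 525 of 6198 genes were higher in cluster 2 (8.47%) and 731 lower (11.8%). Higher were 10 of 14 licensing genes, Cdc6 (107 and 109 against 60.1 and 58.6) and Cxcr4 (113 and 87.0 against 36.0 and 36.6). Lower were 16 of 18 MYC-driven growth genes, 12 of 15 light zone genes and 29 of 37 histones. Myc was at 21.6 and 23.6 CPM in cluster 2 and 104 and 108 in cluster 5, Ccnd2 at 5.25 and 5.12 against 157 and 186, and Il4i1 at 30.7 and 30.2 against 229 and 259. Cluster 5 is thus an S-rich group of mostly LZ-called cells with high Myc, which cluster 2 is not. Ung was at 55.4 and 43.3 CPM there, about level with cluster 2 in library 1 and lower in library 2.

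Cluster 10 gave 1140.5 UMIs per cell at the median, so that 20 CPM is under 2 UMIs there, and it is described in few words. Of 6494 genes, 807 were higher in cluster 2 (12.4%) and 1324 lower (20.4%), among them all 59 histones measured (median -4.58), and thinning left 353 higher. Hist1h2ap was at 16736 and 18039 CPM in cluster 10, and no UMI of Ung was found in it.

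Of the other clusters, cluster 0 holds the most S-called cells (4973 cells, 28.0% S, 70.7% G2M), and this comparison was added after the data were seen. S-called cells of cluster 2 had 92 of 5942 genes higher (1.55%) and 241 lower (4.06%) than S-called cells of cluster 0. All 57 histones were lower, with a median of -3.17, and Hist1h2ap was at 1336 and 1431 CPM against 18136 and 20167. Ccna2 was lower at 36.4 and 38.3 against 116 and 129, Rrm2 at 135 and 158 against 293 and 274, and 15 of 18 G2/M genes were lower. Of the licensing list, 0 of 14 passed the rule in either direction: Cdc6 was at 127 and 132 CPM against 110 and 109 and Mcm3 at 400 and 386 against 312 and 312. E2f1 (178 and 195 against 161 and 160) and Gins2 (73.6 and 81.7 against 59.1 and 62.5) were also within it. Ung stood out among the markers, at 63.3 and 67.4 against 20.1 and 31.7, a mean log2 ratio of 1.37. S-called cells of cluster 2 thus differ from those of cluster 0 by low histones and cyclin A and high Ung, not by most leading genes of cluster 2. Of those leading genes, Zmynd19 (0.72) and Cdca7 (0.58) had the next largest mean log2 ratios after Ung. S-called cells of all other clusters together were another comparison added after the data were seen. Against them 28 genes were higher, 2 of them among the 143, and 186 were lower, 135 of them among the 254. Ung had a log2 ratio of 0.46 there, under the 0.5 of the fold rule, so its high level is not particular to cluster 2 among S-called cells.

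Whether cells of cluster 2 differ by zone was tested over library sums, with LZ and DZ cells of the same library as a pair (edgeR quasi-likelihood test, 1 residual degree of freedom). LZ cells were 542 and 647 and DZ cells 1143 and 1234, at median depths of 3134 and 2790 against 4105 and 3836.5 UMIs. Of 9887 genes, 645 were higher in LZ cells (6.52%) and 851 lower (8.61%) at a Benjamini-Hochberg adjusted p under 0.05, with a median log2 change of 0.01. DESeq2 called 73 and 163, and sums thinned to 1000 UMIs per cell gave 176 and 303 in edgeR. With 1 residual degree of freedom, each p rests mainly on the spread shared over genes and says little of a gene's own spread between the libraries. Genes that may have made the zone call are not independent of it.

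Light zone genes rose together in LZ cells of the cluster: 14 of 16 tested were higher and 1, Lmo4, lower (median log2 change 0.96). Light zone genes may have made the zone call, so their changes are a description and are given without a p. Cd83, an activation marker that helps define the light zone, was at 311 and 277 CPM in LZ cells against 109 and 107 in DZ cells. Its log2 change was 1.39 ± 0.07 (SE, edgeR). Il4i1, which encodes an interleukin-4-induced enzyme that oxidises amino acids, was at 71.8 and 64.7 against 15.1 and 16.6 (2.05 ± 0.15, edgeR). Fcer2a, the CD23 receptor, rose by 1.53 ± 0.15 and Nfkbia by 1.12 ± 0.06 on the same scale. The groups did not overlap for any of these. Lmo4 was at 145 and 121 against 163 and 150. Among S-called cells alone, 15 of 16 light zone genes were higher, beside 460 of all 9560 genes tested. Light zone genes thus also differed among cells of 1 phase call, with the same limit that they may have made the zone call.

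Dark zone genes were lower in LZ cells in 5 of 9 (median -0.24). Cxcr4 was at 74.9 and 60.4 CPM in LZ cells against 128 and 97.2 in DZ cells (-0.78 ± 0.10, edgeR). Cxcr4 may have made the zone call too, so no p is given for it. Foxo1, a factor of the dark zone programme, was at 240 and 242 against 248 and 261 (-0.13 ± 0.06, adjusted p = 0.124, edgeR), a difference that was not detected. The identity list went both ways, with 4 of 13 higher and 2 lower in LZ cells (median 0.10). Gcsam, a member of that list which restrains cell motility, was at 104 and 109 against 174 and 176. Ighg1, the switched constant gene of IgG1, was at 330 and 174 in LZ cells against 196 and 128 in DZ cells.

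The replication programme was lower in LZ cells, but unevenly. Of the licensing list 7 of 16 were lower, of firing 9 of 14, of fork 14 of 31, of nucleotide supply 8 of 14, of recombination 10 of 14, of chromatin copying 11 of 14, and no gene of these lists was higher. Cdc6 was at 89.5 and 71.3 CPM against 114 and 124 (-0.63 ± 0.09), Rrm2 at 49.96 and 65.6 against 134 and 155 (-1.37 ± 0.10) and Ccne2 at 30.2 and 20.9 against 52.0 and 54.8 (-1.13 ± 0.15). The helicase differed little. Mcm3 was at 362 and 339 against 377 and 372 (-0.15 ± 0.05, adjusted p = 0.0173, edgeR), and Mcm2 at 250 and 260 against 234 and 261 (-0.01 ± 0.06, adjusted p = 0.941, edgeR). Ung was at 55.2 and 58.5 CPM in LZ cells against 53.6 and 59.6 in DZ cells (-0.05 ± 0.12, adjusted p = 0.875, edgeR). No zone difference of Ung was detected here, and the miss does not show that the zones are alike.

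Histones and mitotic genes were also lower in LZ cells. Of 56 histones tested 29 were lower and 0 higher in LZ cells (median -0.70), and of 18 G2/M genes 17 were lower (median -1.42). Hist1h2ap was at 531 and 599 CPM against 1405 and 1534. Ccna2 was at 10.9 and 9.03 against 38.1 and 45.4 (-2.12 ± 0.20, edgeR), and the survivin gene Birc5 at 23.9 and 29.5 against 83.0 and 97.7. Mitotic genes and Ccna2 may have made the zone call as well, so no p is given for them. Zones and phase calls move together in the cluster, as given above. Within S-called cells 19 of 54 histones and 16 of 18 G2/M genes were still lower in LZ cells, beside 675 of all 9560 genes tested. The part of the phase in the remaining difference was not tested.

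By the rule for named genes, the 12 largest rises in LZ cells were Mapkbp1, Tgfb3, Il4i1, Camkk1, Il5ra, Egr3, Mfsd3, Hs3st1, Usp54, Lrrc32, Bhlhe40 and Akap17b. All but Il4i1 were under 14 CPM in every sum. Without the filter on low counts, Hs3st1 (adjusted p = 0.052), Mfsd3 (0.0593) and Usp54 (0.115) no longer passed in edgeR, and nor did Ddias among S-called cells (adjusted p = 0.0531). Egr3, an immediate early factor, was at 12.5 and 7.13 CPM against 3.14 and 2.65, and Bhlhe40, a transcription repressor, at 13.5 and 10.9 against 4.12 and 3.78. The 12 largest falls were Pimreg, Ifit2, Ccna2, Hmmr, Cdc20, Ddias, Plk1, Cdkn3, Hist1h3g, Nuf2, Birc5 and Nek2, of which most are known from G2 and mitosis. Hmmr, a spindle protein, was at 9.89 and 9.98 against 36.7 and 46.5.

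**Figure D4:**
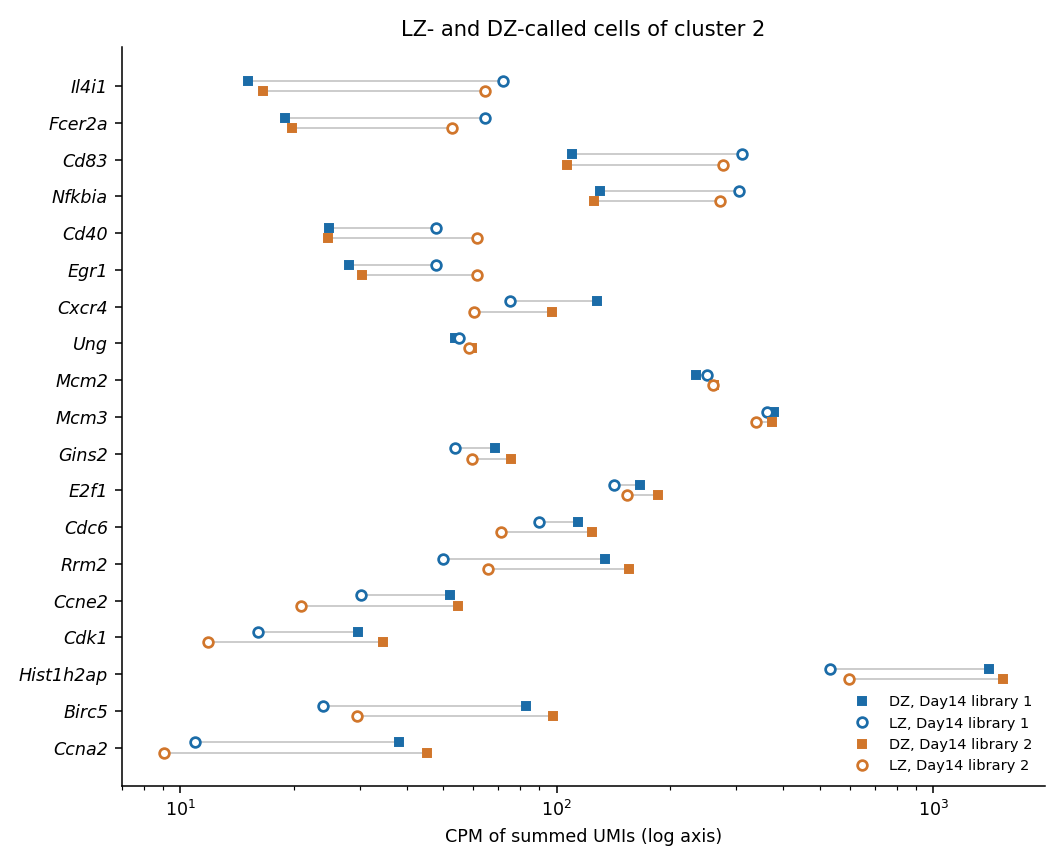
CPM (x axis, log scale) of 19 genes (y axis) in LZ-called cells (open circles) and DZ-called cells (squares) of cluster 2, in both day 14 libraries (colours), with a line joining the 2 zones of a library. Il4i1, Fcer2a, Cd83, Nfkbia and Cd40 lie further right in LZ cells, Ccna2, Birc5 and Hist1h2ap in DZ cells, and Ung and Mcm2 are nearly level.

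Whether the LZ to DZ difference in cluster 2 is unlike that of the other day 14 cells was fitted as an interaction. Since the cluster was drawn on these genes, the fit describes its cells, and single genes are given without a p. The difference was more positive in cluster 2 for 886 of 11269 genes (7.86%) and more negative for 512 (4.54%) at an adjusted p under 0.05 (edgeR). Among S-called cells only, the counts were 264 and 209. For 12 of 17 light zone genes no unlike difference was called, while 1 was more positive and 4 more negative in the cluster. Cd83 differed by -0.11 ± 0.09 and Il4i1 by -0.17 ± 0.14. For cell cycle genes, all 18 G2/M genes and 53 of 64 histones had a smaller fall in LZ cells of the cluster, or none. Zone and phase go together in the other cells. Clusters 0 and 4 were 97.1% and 97.6% DZ and 70.7% and 85.3% G2M-called, and cluster 1 was 29.4% DZ and 93.3% G1-called. The part of this phase make-up was not tested beyond the fit among S-called cells. Mki67 was at 755 and 752 CPM in LZ and 1242 and 1299.98 in DZ cells of cluster 2, against 460.1 and 494 in LZ and 2279.6 and 2258 in DZ cells elsewhere (1.52 ± 0.04).

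Ung, a gene by which the cluster is marked, gave the opposite case. Outside the cluster it was at 23.8 and 25.4 CPM in LZ cells and 10.3 and 13.0 in DZ cells, and inside it the zones were level, so its LZ to DZ difference was lower by 1.05 ± 0.15 in the cluster (log2 ± SE). Myc, which marks selected light zone cells, differed likewise by -0.998 ± 0.17, at 25.5 and 32.3 against 20.02 and 20.04 in cluster 2 and 46.1 and 52.8 against 15.9 and 17.8 elsewhere. Ccnd2 was at 8.85 and 7.61 CPM in LZ cells of cluster 2, against 66.6 and 80.9 in LZ cells elsewhere (-1.73 ± 0.30). Cluster 5, only 18.6% DZ, had Ung at 55.4 and 43.3 CPM, Myc at 104 and 108 and Ccnd2 at 157 and 186. The part of cluster 5 in these differences was not tested. Of the MYC-driven growth list, 9 of 19 had a more negative difference in the cluster and 0 a more positive one. For Cdc6 (-0.03 ± 0.14) and Cxcr4 (0.02 ± 0.10) no unlike difference was detected.

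The 4 libraries not used to draw the cluster were asked whether S-called cells have the same genes high. Of 10624 genes, 2893 were higher in S- than in G1-called cells (27.2%) and 2969 lower (27.9%), so that calls were common. All 20 leading genes of cluster 2 were higher there. How the phases were called is not known here, and 10 of the 20, Ung and Cdc6 among them, are on the S list that Seurat uses for such calls, so their values are a description. Ung went from 24.0 to 101 CPM in the KO chimaera, from 22.6 to 102 in the control chimaera, and from 38.3 to 140 and from 50.4 to 146 in the day 7 libraries. Cdc6 went from 13.0 to 80.6, 11.4 to 81.6, 19.2 to 126 and 21.1 to 110 CPM in the same order. Of the 10 leading genes off that list, Mcm3 rose from 149 to 388, 124 to 394, 212 to 542 and 241 to 500.1 CPM (1.3999 ± 0.08, adjusted p = 4.34e-07, edgeR), Pask by 2.74 ± 0.10 and Chek1 by 1.78 ± 0.12. S- and G1-called values did not overlap for Mcm3, Ung or Cdc6. Levels of some genes differ between these tables: E2f1 was at 31.2 and 30.6 CPM in S-called cells of the KO and control chimaeras and 154 and 129 at day 7. They were built from different gene lists and cell filters, so levels are compared only within a library.

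Of the 143 genes higher in cluster 2, 140 were tested in the other libraries and 136 were higher in S-called cells, 0 lower. On the Seurat S list are 32 of the 143. Without them, 104 of 108 were higher. Genes lower in cluster 2 did not behave alike: of 241 tested, 57 were lower and 153 higher in S- than in G1-called cells, while 201 were lower and 10 higher in S- than in G2M-called cells. Of the 10 lowest genes, 9 were higher in S- than in G1-called cells, Hist1h2ap by 3.07 ± 0.22, and Hist1h2ab did not pass (1.38 ± 0.55, adjusted p = 0.0575, edgeR). Within cluster 2 the same direction was seen between its phase calls, with 10 of 25 histones lower and 0 higher in G1- than in S-called cells. Without the library pairing, 1268 genes were higher and 696 lower, and E2f1 (adjusted p = 0.0782, edgeR) and Zmynd19 (adjusted p = 0.118, edgeR) no longer passed.

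**Figure D5:**
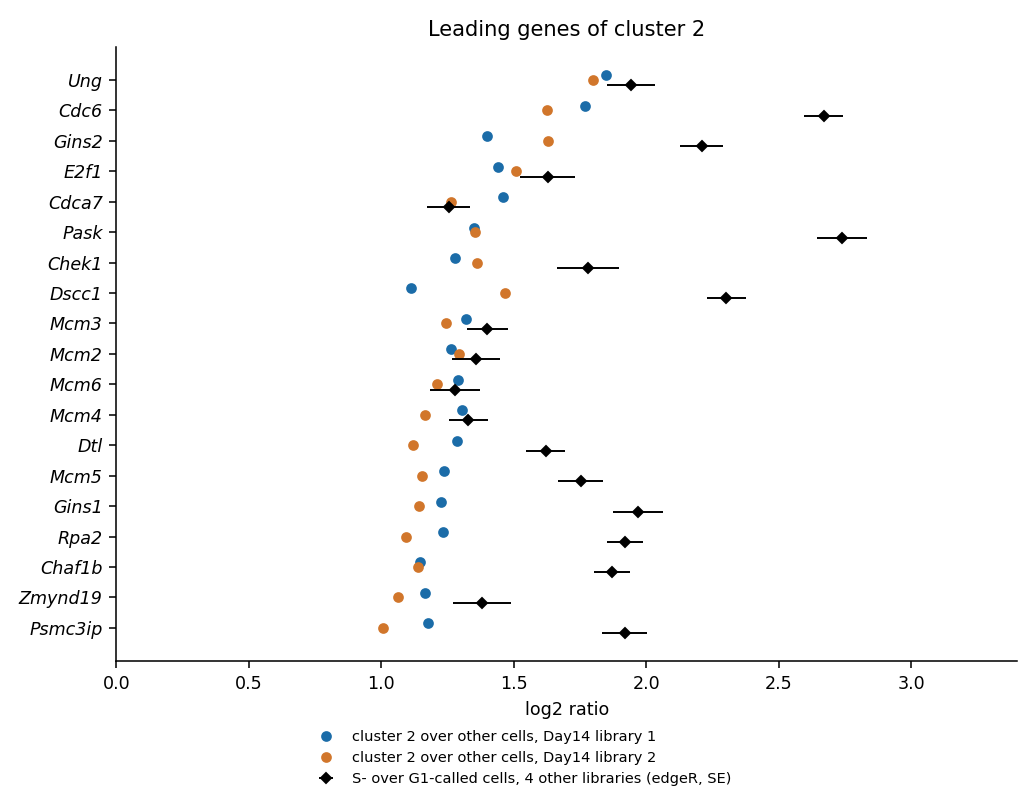
Log2 ratios (x axis) of 19 of the 20 leading genes of cluster 2 (y axis): cluster 2 over other cells in each day 14 library (circles), and S- over G1-called cells in the 4 other libraries (diamonds, edgeR estimate with its standard error). Every value is above 0, and Cdc6 and Pask have the largest S to G1 differences, at 2.67 and 2.74.

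The zone difference was also looked for in S-called cells of the 4 other libraries. LZ cells were higher than DZ cells for 1372 of 9597 genes (14.3%) and lower for 1371 (14.3%). Of the 645 genes higher in LZ cells of cluster 2, 605 were tested there and 311 were higher, which is 51.4% of those tested and 22.7% of the list called there. Of the 851 lower, 795 were tested and 520 were lower, 65.4% of those tested and 37.9% of that list. Il4i1 (1.93 ± 0.07) and Cd83 (1.29 ± 0.08) rose by much the same amounts as in cluster 2, 15 of 16 light zone genes were higher, and 58 of 58 histones and 18 of 18 G2/M genes were lower. Camkk1 passed here (adjusted p = 0.04, edgeR) but missed when any 1 of the 4 libraries was left out (adjusted p 0.0505 to 0.227), and Tgfb3 did not pass (0.08 ± 0.35).

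Ung differed by zone in these S-called cells. It was at 129 CPM in LZ and 87.9 in DZ cells of the KO chimaera, 127 and 90.1 in the control chimaera, and 156 and 135, and 178 and 126, in the day 7 libraries, higher in LZ cells in 4 of 4 (0.44 ± 0.06, adjusted p = 8.62e-05, edgeR). In cluster 2 the same contrast gave -0.05 ± 0.12. Whether the 2 values differ was not tested, and the first is over S-called cells alone while the second is over all cells of the cluster.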

How the data were processed

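UMI counts per gene and cell were used as deposited by the authors in 3 tables, unnormalised whole numbers, and all deposited cells were kept. Cell Ranger, Seurat and the mm10 genome are named per the submitters' processing notes, and versions and settings are not given in the sources used here. Library, phase, zone and cluster of each cell are the deposited calls. The cells, markers and 17 gene lists were chosen with earlier results of these data known.

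Counts were summed over cells and divided by the sum (CPM). The 95% intervals are exact, conditional binomial for ratios and Clopper-Pearson for shares. Tests used edgeR 4.0.16 in R 4.3.3 (TMM, filterByExpr, glmQLFit, library as a block because both sums of a pair come from 1 library) with Benjamini-Hochberg adjustment over all genes tested. SE was derived from the F statistic, whose square root divides the log2 change. The fits of the 4 other libraries used symbols listed in all 3 tables and pool control and KO hosts and day 7. DESeq2 1.42.0 was an alternative. Named genes were the 20 highest and 10 lowest past the fold rule, the 12 largest zone and 8 largest interaction changes in each direction, without immunoglobulin, mitochondrial, ribosomal protein and predicted genes, plus list members. Values of some list members are not reported here.

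Tested on simulated counts, the zone fit recovered 78% of genes changed by a log2 of 1 and 100% of those changed by 2, with 11 false calls among 9880 genes. The interaction fit recovered 50% and 91%, with 8 false calls among 11197 genes. These counts were drawn with the same dispersion of 0.01 for every gene and no library differences other than depth. Only well-counted genes were changed. The rates need not hold for the real data, nor for genes at a few CPM.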

Additional observations from a re-analysis of the deposited data

Results flagged for a closer look

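For 16 genes the LZ to DZ difference in cluster 2 was most unlike that in the other day 14 cells, as the 8 largest log2 differences in each direction. They were picked at an adjusted p under 0.05 in the interaction fit (edgeR), which is a description here and no test of these genes. Most are counted at a few CPM, and where a sum is at or near 0 the value depends on the prior count and is no bound.

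More positive in cluster 2 were Olfr889 (3.42), Hapln1 (3.35), the mitotic kinase gene Aurka (3.31), Hist1h4b (2.98), Pif1 (2.79), Hist2h2aa2 (2.73), Hist1h2bq (2.67) and Troap (2.54). Aurka was at 8.33 and 6.18 CPM in LZ and 8.24 and 8.70 in DZ cells of cluster 2, against 4.89 and 5.74 in LZ and 60.9 and 61.4 in DZ cells elsewhere. Its value among S-called cells only was 1.98.

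More negative were Mfhas1 (-4.22), Nectin1 (-3.97), Lpin1 (-3.58), the survival gene Bcl2 (-3.45), Vmn2r97 (-3.03), Rbm47 (-2.86), Rnf183 (-2.80) and the Fc receptor-like gene Fcrl5 (-2.71). Bcl2 was at 1.04 and 0 CPM in LZ cells of cluster 2 against 20.5 and 8.42 in LZ cells elsewhere, and Fcrl5 at 1.04 and 0.951 against 17.0 and 15.97. The cluster was drawn on these genes in these cells, so the fit describes them. Without the library block 7 of the 16 did not pass in edgeR: Bcl2, Hapln1, Hist1h2bq, Lpin1, Nectin1, Rnf183 and Vmn2r97. After thinning to 1000 UMIs, Hist2h2aa2, Fcrl5 and Pif1 did not pass in edgeR, and in DESeq2 Fcrl5 did not. Among S-called cells only, 9 of the 16 were counted highly enough to be fitted and 6 of those did not pass in edgeR: Bcl2, Fcrl5, Hist1h2bq, Pif1, Rbm47 and Troap.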

How the results depend on the processing

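Each alternative changed 1 choice. For cluster 2 against other cells, a minimum of 5 CPM gave 210 higher and 419 lower genes, a fold rule of 1 gave 26 and 136, and equal weight per cluster gave 182 and 512. With 1 library alone there were 191 to 218 higher and 306 to 375 lower. S-called against S-called cells, and leaving out clusters 7 to 10, were chosen after seeing the data, as was the contrast with cluster 0. The first gave 28 higher genes. Thinning to 1000 UMIs gave 163 higher genes in G1- against S-called cells, and 353 against cluster 10. Among cells above the median UMI count, 20.8% of library 1 and 19.0% of library 2 were in cluster 2.

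For LZ against DZ in cluster 2, DESeq2 gave 73 higher and 163 lower genes, thinning 176 and 303, and the fit without the library block (no pairing) 419 and 620. For the interaction these gave 581 and 241, 336 and 184, and 590 and 249 in that order, and S-called cells only 264 and 209. With 1 library left out, these fits have no residual degrees of freedom, so no calls were made. For S- against G1-called cells in the other libraries, no block gave 1268 higher and 696 lower, and leaving out 1 library 2491 to 2764 and 2307 to 2714. For LZ against DZ there, DESeq2 gave 693 and 781, no block 226 and 254, and leaving out 1 library 925 to 1305 and 887 to 1254, the lowest of each without the control chimaera. Without that library Tgfb3 turned to -0.19 (adjusted p = 0.808, edgeR), the lowest of its values with 1 library left out, which reached 0.078. The cause of these changes was not tested, beyond fewer UMIs or samples by construction. A gene under 20 CPM lies below what these sums were asked to describe.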
